A study of Rattus norvegicus with 8 samples.

Results

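The genes described here make nitric oxide, clear the inhibitors of that synthesis, or form and break down arginine. They comprise 9 genes, Ddah1, Ddah2, Nos1, Nos2, Nos3, Ass1, Asl, Arg1 and Arg2, and were measured by 10 of the 31042 probe sets of the array. A probe set was taken when the platform annotation gave it one of these symbols and no other. A further Nos2 probe set, which the annotation also assigns to the pseudogene Nos2-ps1, was left out. The group was chosen by the differences between the meals in these same arrays, in which Ddah1 was among the lowest genes after whey protein hydrolysate and Nos1 was also lower, so those differences are given below as a description, without a test.

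Epitrochlearis, a thin forelimb muscle made largely of fast fibres, was profiled in 8 male Sprague-Dawley rats, 1 array per rat. The rats were 5 weeks old when they were obtained and 6 weeks old per the sample labels. All had 3 days of swimming practice, a ration of 5 g of chow on the day before, and 2 h of swimming in groups of 4. By gavage they then received 44 kJ, about 15% of a day's energy, as carbohydrate with either an amino acid mixture (AAM, n = 4) or whey protein hydrolysate (WPH, n = 4), which is milk whey protein cut into peptides. Every rat swam and was fed, so the arrays compare the form of the amino nitrogen and hold no measure of swimming or feeding itself. No source used here gives the barrel, array batch or time of sampling, and an effect of barrel or batch cannot be told apart from that of the meal if they differed between the groups.

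Nitric oxide synthases convert arginine to nitric oxide and citrulline. Nos1 encodes the neuronal form, which in muscle fibres is anchored beneath the membrane through the dystrophin complex, Nos3 the endothelial form, and Nos2 the form induced in inflammation. Methylated arginines released from proteins inhibit these enzymes, and the dimethylarginine dimethylaminohydrolases encoded by Ddah1 and Ddah2 degrade them. Ass1 and Asl encode the enzymes that rebuild arginine from citrulline, while the arginases Arg1, cytosolic, and Arg2, mitochondrial, split arginine into ornithine and urea.

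The deposited values are on a log2-like scale with an unstated method of summary, and the differences between arrays are far smaller than log2 differences usually are. Across the 8 arrays the median SD was 3.69e-06. Deviations are therefore given in millionths of a deposited unit from the mean of the 8 arrays, and no difference is read as a fold change. The standardized difference takes the WPH mean less the AAM mean in units of the pooled within-group SD, with its 95% interval from the noncentral t distribution. Array medians themselves differed by 66.7 millionths from the lowest array (AAM replicate 2) to the highest (AAM replicate 3), and the mean of the WPH medians was 11.7 millionths above that of the AAM medians. AAM replicate 3 deviated most from its group over all probe sets, with a mean squared deviation of 0.994 in units of the pooled variance against 0.635 to 0.817 on the other 7 arrays. The tissue label was checked on 10 markers of skeletal muscle fibres, whose levels lay between 11.33 and 14.24, while 6 liver markers lay between 5.82 and 6.71. Members with a mean level in the liver marker range were Nos3 (6.17), Nos1 (6.23), Ass1 (6.54), Arg1 (6.55), Arg2 (6.67) and an Asl probe set (6.68). Whether these members were above background was not tested. In whole muscle, fewer cells of a type and less RNA per cell cannot be told apart.

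Over the whole table, limma with Benjamini-Hochberg adjustment called 0 of 31042 probe sets different between the meals (0%), so 0 of the 10 members were called either. At an unadjusted p below 0.05 limma had 1110 probe sets (3.58%). Limma draws each variance toward a common value, so at a like standardized difference a probe set of narrow spread gets a larger p. Among companion genes described below, Qdpr (-1.69, SD at percentile 2.2) had an unadjusted limma p of 0.391. Nostrin (-1.61, percentile 74.1) had 0.0513. The lack of calls therefore says little about members of narrow spread. The 4 WPH values did not overlap with the 4 AAM values for 693 probe sets (2.23%), all lower for 358 (1.15%) and all higher for 335 (1.08%), and Ddah1 was the 1 member among them, lower. On the deposited values 7 of the 10 member probe sets were lower after WPH and 3 higher, where 47.3% of all probe sets were higher. After quantile normalization 5 members were higher, beside 55.1% of all probe sets, and after median centring 1 was, beside 9.01% of all, where centring took from every probe set a median that was on average 11.7 millionths higher on the WPH arrays. Quantile normalization works through ranks within an array, which moved over a median of 3 places over all probe sets. Of the 10 members, 8 moved over at most 9 places, so signs after quantile normalization often rest on few places. The median standardized difference of the members was -0.14, against -0.04 over all probe sets.

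**Figure D1:**
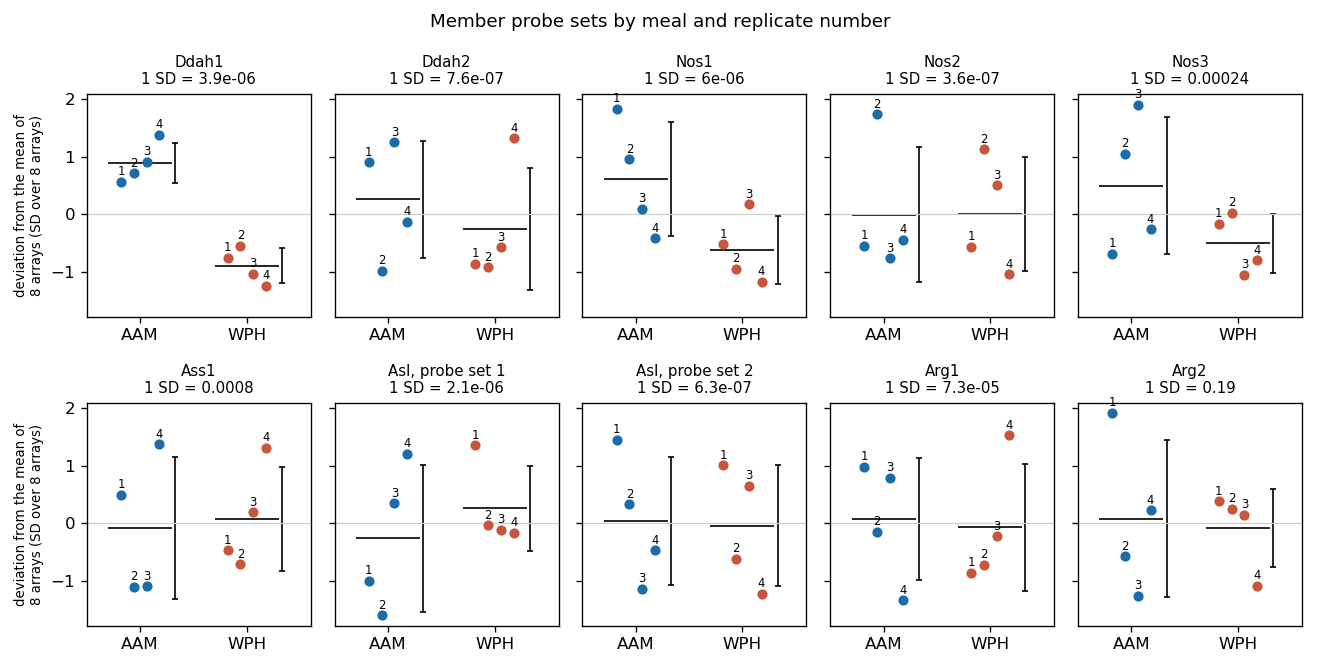
Each panel plots 1 member probe set, with the deviation of each array from the mean of 8 arrays on the y axis in SDs over the 8 arrays and the meal on the x axis. Points are rats with their replicate number, horizontal lines are group means and bars are the SD within a group (n = 4). Asl probe set 1 is the one whose accession is that of Hnrnpab. The groups are apart for Ddah1, where the lowest AAM array is at 0.564 and the highest WPH array at -0.542, and overlap in the 9 other panels.

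Ddah1, the dimethylarginine hydrolase through which the group was chosen, had a mean level of 7.41. The 4 AAM arrays, replicates 1 to 4, deviated from the mean of 8 by 2.20, 2.79, 3.54 and 5.39 millionths. The 4 WPH arrays deviated by -2.93, -2.12, -4.01 and -4.85 millionths. All AAM arrays thus lay above all WPH arrays. The difference was -6.96 ± 0.916 millionths (SE, n = 4 per group), a standardized difference of -5.37, the fourth lowest of the 31042 probe sets. The SD of Ddah1 over the arrays, 3.91e-06, was at percentile 51.5 of all probe sets, but this SD includes the difference between the meals. Its pooled SD within the groups was 1.29 millionths, so the standardized difference rests partly on a narrow scatter within each meal. The median SD over the arrays, meal differences included, was 3.69 millionths.

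The other scalings did not keep the groups apart. The 8 values of Ddah1 ranged over 10.2 millionths, while the probe sets nearest in mean level lay 13.0 millionths below and 176 above. Ranked within each array, Ddah1 therefore stood at place 22228 or 22227 of 31042 throughout. Quantile normalization, which works through these ranks, gave a standardized difference of -0.46, and median centring, which moves the arrays against each other by up to 66.7 millionths, gave -0.86, both with overlapping groups. Ranks cannot resolve a separation that stays within 1 place. The WPH medians were on average 11.7 millionths higher, more in size than the Ddah1 difference of -6.96 millionths. Which scaling is nearer to the true levels was not tested. Leaving out each array in turn on the deposited scale gave -6.19 to -4.87.

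Ddah2, the second dimethylarginine hydrolase, had a mean level of 7.83, and its values overlapped between the meals. Its AAM arrays deviated by 0.683, -0.746, 0.949 and -0.101 millionths and its WPH arrays by -0.651, -0.697, -0.433 and 0.997 millionths. WPH replicate 4 was the highest of the 8, and the other 3 WPH arrays were close together on the low side. The standardized difference was -0.50 (95% interval -1.89 to 0.93). Without WPH replicate 4 it was -1.31, so the value was moved most by that array.

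Among the synthases, Nos1 had a mean level of 6.23. The AAM arrays were displaced by 10.9, 5.70, 0.586 and -2.49 millionths and its WPH arrays by -3.10, -5.68, 1.04 and -6.99 millionths. The highest values were those of AAM replicates 1 and 2, and WPH replicate 3 lay above AAM replicates 3 and 4, so the groups overlapped. The difference was -7.36 ± 3.44 millionths (SE, n = 4 per group), or -1.51 standardized, and it turned to 0.13 with quantile normalization and to 0.36 on ranks within each array. Those 2 scalings follow Nos1 coarsely as well. Its values ranged over 17.9 millionths, the nearest mean levels lay 43.3 above and 76.7 below, and its rank moved over 4 places.

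Nos3, the endothelial form, had a mean level of 6.17, in the range of the liver markers, and a far wider spread, at percentile 95.6 of all probe sets. Deviations on the AAM arrays were -162, 249, 451 and -62.7 millionths and on the WPH arrays -39.3, 4.95, -251 and -190.0 millionths. AAM replicates 2 and 3 were high, whereas AAM replicates 1 and 4 lay among the WPH arrays. The standardized difference was -1.09 (95% interval -2.57 to 0.46). It kept its sign in all 14 alternatives in which Nos3 was fitted, from -1.76 without AAM replicate 1 to -0.77 without AAM replicate 3, with -1.29 after quantile normalization and -1.16 after median centring, shifts that are small beside its own spread. Leaving out dim probe sets removed Nos3, so that alternative is not among the 14. The 9 endothelial markers measured were divided, 6 higher and 3 lower after WPH on the deposited values and 3 higher and 6 lower with quantile normalization. Their score, the mean z-score of the markers on an array, was highest on WPH replicate 3 (0.896) and AAM replicate 3 (0.880), the arrays with the lowest and the highest Nos3. Over the 8 arrays Nos3 and this score had Pearson's r = 0.00 (exact permutation p = 0.997, 0.997 adjusted over 11 relations of members to marker scores) and Spearman's rho = -0.38 (exact p = 0.36, adjusted 0.635). Without the 2 arrays farthest from the median score, r was -0.90.

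Nos2, the inducible synthase, varied least of the members. Its mean level was 6.82 and its SD of 3.61e-07 was at percentile 4.2. Its AAM arrays deviated by -0.198, 0.625, -0.276 and -0.161 millionths and its WPH arrays by -0.203, 0.406, 0.181 and -0.375 millionths. Replicate 2 was highest in both groups, and the standardized difference was 0.01 (95% interval -1.37 to 1.4). Quantile normalization moved it to 1.32. The probe set shared with the pseudogene, left out of the counts, had a standardized difference of -0.41 and r = -0.01 with the Nos2 probe set over the 8 arrays.

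Both enzymes that rebuild arginine from citrulline were close between the meals, with wide intervals. Ass1, the argininosuccinate synthase, had a mean level of 6.54 and an SD at percentile 98.1. On the AAM arrays the deviations were 394, -872, -870.0 and 1090 millionths and on the WPH arrays -375, -566, 154 and 1040 millionths. Replicate 4 was high and replicate 2 low in both groups, which overlapped throughout. The standardized difference was 0.15 (95% interval -1.24 to 1.53).

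Asl, the argininosuccinate lyase, was represented by 2 probe sets that did not vary together (r = -0.20 over the 8 arrays). The probe set whose accession is that of Asl in the current RefSeq gene table deviated by 0.918, 0.211, -0.717 and -0.298 millionths on the AAM arrays and by 0.639, -0.391, 0.413 and -0.772 millionths on the WPH arrays. The values of both meals covered nearly the same range, and its standardized difference was -0.08 (95% interval -1.47 to 1.31). For the other, the annotation names Asl but gives an accession that belongs to Hnrnpab, an RNA-binding protein gene. Such a mismatch was found for 13 of 2901 named probe sets whose accession is in the gene table (0.45%). Its standardized difference was 0.50, with WPH replicate 1 highest at 2.83 millionths, and it had r = -0.02 with the probe set annotated as Hnrnpab. Which of these transcripts it measures was not tested.

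**Figure D2:**
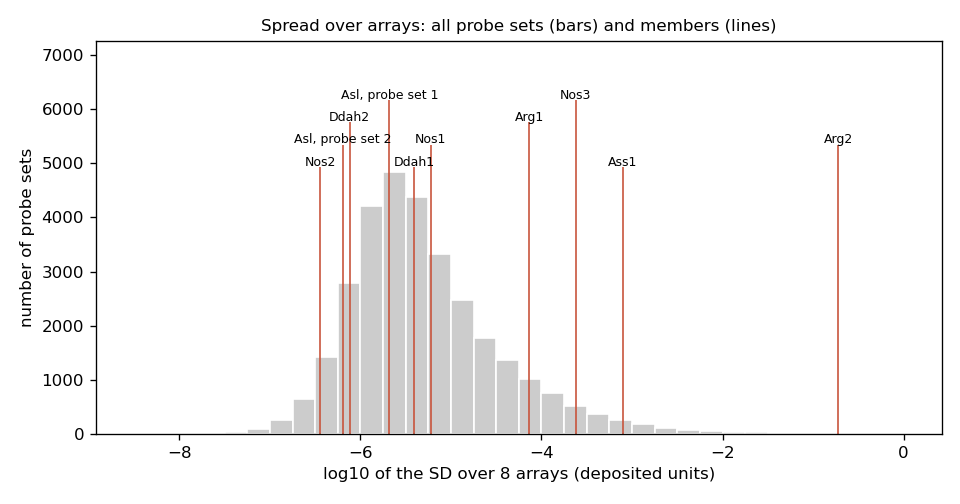
Bars count all 31042 probe sets by the log10 of their SD over the 8 arrays, in deposited units, and lines mark the 10 member probe sets. Nos2 and the Asl probe set of matching accession lie at the narrow end, Ddah1 near the middle, and Arg2, with an SD of 0.191, at the far right.

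The arginases differed from each other in how far they varied. Arg1, the cytosolic enzyme found in liver and in some macrophages, had a mean level of 6.55. Its AAM arrays deviated by 71.6, -10.8, 57.8 and -97.9 millionths and its WPH arrays by -62.7, -53.2, -16.6 and 112 millionths. The highest and the lowest array belonged to different meals, WPH replicate 4 and AAM replicate 4, and the groups overlapped, with a standardized difference of -0.13 (95% interval -1.51 to 1.26). Set against the score of 10 macrophage markers, Arg1 had Pearson's r = 0.85 (exact permutation p = 0.0118, 0.13 adjusted over the 11 relations) and Spearman's rho = 0.90 (exact p = 0.00456, adjusted 0.0502). The relation did not pass the adjustment. It was 0.87 within the groups and 0.72 without the 2 arrays farthest from the median score. With 6 liver markers r was 0.68 (exact p = 0.0724, adjusted 0.398) and rho 0.81 (exact p = 0.0218, adjusted 0.12), and without the 2 farthest arrays r was 0.28. The macrophage markers lay between 7.06 and 10.90 in level and their score showed no common direction by meal, with 0.928, -0.715, 0.460 and -0.974 on the AAM arrays and -0.965, 0.037, 0.367 and 0.863 on the WPH arrays.

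Arg2, the mitochondrial arginase, had the widest range of any of the 31042 probe sets and the second largest SD. Its deposited values were 7.04, 6.56, 6.43 and 6.71 on the AAM arrays and 6.74, 6.72, 6.70 and 6.46 on the WPH arrays. AAM replicate 1 was the highest and AAM replicate 3 the lowest, so one meal held both extremes, and among the WPH arrays replicate 4 was low while the other 3 lay within a narrow band. The range of 0.604 is in deposited units, which cannot be read as a fold. The difference between the meals was -0.0296 ± 0.145 (SE, n = 4 per group), a standardized difference of -0.14 (95% interval -1.53 to 1.25), and it turned to 0.65 without AAM replicate 1 and was -0.62 without AAM replicate 3. In rank within an array Arg2 moved over 7770 places, against at most 40 for the 9 other member probe sets and a median of 3 over all probe sets. Arg2 showed little relation to the macrophage score (r = 0.03, exact permutation p = 0.952, adjusted 0.997; rho = -0.14, exact p = 0.752, adjusted 0.919) or the score of 5 neutrophil markers (r = 0.02, exact p = 0.955, adjusted 0.997; rho = 0.05, exact p = 0.935, adjusted 0.935). Without the 2 arrays farthest from each median score, r was 0.27 and -0.55.

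The other 6 relations of a member to a marker score had no p below 0.05, with rho between -0.45 and 0.10 (exact permutation p from 0.267 to 0.84, adjusted 0.635 to 0.924). Nos1 and the skeletal muscle fibre score had r = -0.59 (exact permutation p = 0.12, adjusted 0.44), with 0.07 left without the 2 farthest arrays. Ddah1 had r = -0.30 with the fibre score (exact p = 0.477) and -0.22 with the endothelial score (exact p = 0.57), both 0.896 after adjustment, and 0.33 and -0.48 without the 2 farthest arrays. Within the groups r was -0.05 and -0.09 for Ddah1, and -0.55 for Nos1 with the fibre score. The permutations kept the difference between the meals by which Ddah1 and Nos1 were chosen, so their p-values are not free of that choice. Ass1 had r = -0.06 with the endothelial score (exact p = 0.878, adjusted 0.997), and 0.46 without those 2. Nos2 had -0.33 with the macrophage score (exact p = 0.425, adjusted 0.896), and -0.91 without them. Arg1 had -0.25 with the neutrophil score (exact p = 0.538, adjusted 0.896), and -0.44 without them. The 11 relations were chosen after the values of the members had been seen.

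With the group means removed, the 9 genes did not vary as a unit. Over their 36 pairs, with Asl taken at the probe set of matching accession, the correlation over the 8 arrays had a median of -0.10 and ran from -0.84 to 0.84, with 6 pairs beyond 0.7 in size. Ddah1 and Arg1 had -0.84, Nos3 and Ass1 -0.81, Ddah2 and Nos2 -0.79, and Ddah2 and Arg1 0.83. Asl had 0.84 with Nos1 and 0.79 with Arg2. All pairs share the same 8 arrays, and each coefficient rests on 8 points with the 2 group means taken out. With Asl taken instead at its probe set of highest mean level, the one with the Hnrnpab accession, the median was -0.05 and 4 pairs, none of them with Asl, lay beyond 0.7.

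**Figure D3:**
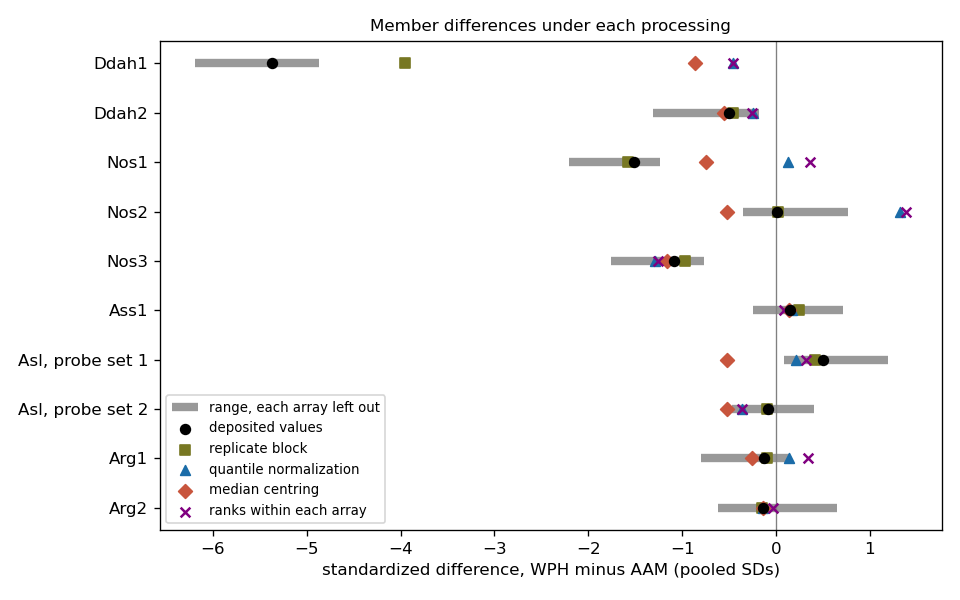
The standardized difference between the meals, WPH minus AAM in pooled SDs, is plotted for each member probe set from the deposited values (black circles) and under other processing, with grey bars for the range over the 8 fits that each leave out 1 array. Ddah1, whose values range over 10.2 millionths, is at -5.37 on the deposited values, -0.86 with median centring and -0.46 with quantile normalization. Nos3, with a far wider spread, lies between -0.77 and -1.76.

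The companion genes of the pathway were taken from 7 lists, with 65 genes measured and 1 probe set per gene. Limma called 0 of them (0 of 31042 probe sets in all), and 5 of the 65 (7.69%) had an unadjusted p below 0.05, against 3.58% of all probe sets. On the deposited values 30 were higher and 35 lower after WPH, where 46.1% of all 14217 genes were higher, with a median standardized difference of -0.13 against -0.06. With quantile normalization 36 of the 65 were higher (55.4%, against 55.5% of all genes), and with median centring, which lowers all genes alike after WPH, 15 were (23.1% against 11.2%). The quantile counts here and below share the coarseness of ranks given above. The values of the named genes below are those of genes that did not pass the test.

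In the list of polyamine, proline and creatine synthesis, 11 of 18 genes were higher after WPH (10 with quantile normalization and 7 with median centring), and the median standardized difference was 0.32. Amd1, the decarboxylase that supplies the aminopropyl groups of polyamines, had 1.93 (95% interval 0.13 to 3.63). Its AAM arrays deviated by -28.3, -37.2, -15.9 and -11.8 millionths and its WPH arrays by 65.0, -1.27, -2.60 and 32.1 millionths. Sms, spermine synthase, had 1.92 (95% interval 0.13 to 3.62), with -179, -16.8, -33.9 and -8.05 millionths on the AAM arrays and 66.6, 35.4, 30.3 and 106 millionths on the WPH arrays. For both, all WPH arrays lay above all AAM arrays, and they were the 2 of 65 companion genes (3.08%) without overlap, against 2.23% of all probe sets, a share again not taken over 1 probe set per gene. Quantile normalization gave 0.71 for Amd1 and -0.51 for Sms, and median centring 1.30 and 1.69. A size of 0.71 recurred under quantile normalization, with 0.71 for Got1 and -0.71 for Calm2, so the Amd1 value is not read as a difference. The largest standardized difference in size of the 65 was that of Pycr3, an enzyme of proline synthesis, singled out after its values were seen, at -2.06 (95% interval -3.81 to -0.22), lower in both of its probe sets and with overlapping groups, and median centring gave -0.59 for it, quantile normalization -0.46.

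In the other lists no gene was without overlap. Of 7 urea cycle genes beside the members, 3 were higher after WPH (5 with quantile normalization, 0 with median centring). Slc25a13, the mitochondrial carrier that exports the aspartate used by argininosuccinate synthase, had -1.91 (95% interval -3.60 to -0.12), and -1.06 and -2.0 under those scalings. Got1, which forms aspartate in the cytosol, had -0.69. Of 9 genes that form methylarginines or otherwise remove them, 1 was higher after WPH on the deposited values and with median centring and 4 with quantile normalization. Prmt1, also listed, was not among the genes measured. The arginine methyltransferases Prmt2 and Prmt8 had -0.80 (95% interval -2.23 to 0.68) and -0.77 (-2.19 to 0.71).

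Partners of the synthases were divided, 4 higher and 5 lower after WPH (3 higher with quantile normalization and 2 with median centring). Nostrin, which directs the endothelial synthase inside the cell, had -1.61 (95% interval -3.22 to 0.08), and Calm2, a calmodulin gene whose product activates the constitutive synthases, had 1.03. Of 4 genes of the cofactor tetrahydrobiopterin, 2 were higher after WPH (3 with quantile normalization and 1 with median centring), with the recycling enzyme Qdpr at -1.69 (95% interval -3.31 to 0.03) and Gchfr, the feedback regulator of its synthesis, at -0.77. Downstream, cyclic GMP signalling had 5 of 10 higher (4 and 2 under those scalings). The soluble guanylate cyclase subunit Gucy1b1, which is part of the nitric oxide receptor, had 0.92, with 1 of its 2 probe sets going that way, and the kinase Prkg2 had -0.93. Arginine transport had 4 of 8 higher (7 and 2), with Slc3a2, the heavy chain of several amino acid transporters, at -0.71 and the mitochondrial carrier Slc25a29 at -0.49.

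**Figure D4:**
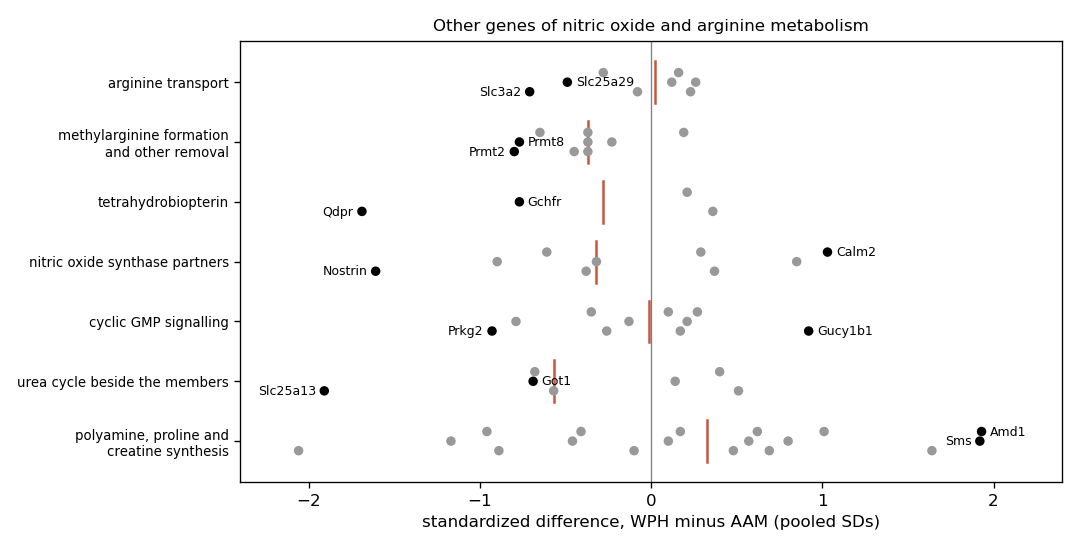
Points are the companion genes of each list, placed by their standardized difference between the meals (WPH minus AAM in pooled SDs), with the list median as a line and, in black, the genes with the smallest unadjusted p in each list. No list lies wholly on one side of 0, and Amd1 and Sms, at 1.93 and 1.92, are the points farthest to the right.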

How the data were processed

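The values used were those the authors deposited, 1 per probe set and array, on a log2-like scale. The submitters' processing notes name R 2.7.2; background correction, normalization and summary method were not given in the sources, so scale and centring stay unknown. Of 31099 probe sets, 57 controls were left out. Groups came from the sample titles. Probe sets were named from GEO's platform annotation, and RefSeq (GRCr8) held the gene ID of 20758 of 20826 single-symbol probe sets, with 0 symbols updated. WPH was compared with AAM by limma 3.58.1 in R 4.3.3 (lmFit, eBayes, two-sided, threshold 0.05 on the adjusted p) over the whole table, checked on simulated data. For members no p of the meal contrast is given, only the count of calls. Correlations with marker scores have exact two-sided permutation p-values and Benjamini-Hochberg adjustment. The rule for named genes took every member probe set, the 2 companion genes of smallest unadjusted p per list, and the 5 genes most like Ddah1, Nos1 and Nos3 with group means removed. The members and lists were chosen with earlier results of these data known. The labels call the samples biological replicates. The number of arrays limits the precision. Alternatives were quantile normalization, median centring, ranks, leaving out dim probe sets, blocking on the replicate number, array weights, another prior, a threshold of 0.1 and leaving out each array.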

Additional observations from a re-analysis of the deposited data

Results flagged for a closer look

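In 5 of 48 groups of 4 arrays, taken over the members and the named companion genes, 1 array lay apart from its group, by a high Dixon ratio of gap to range, where chance gives about 1 in 20. Ddah2 was high on WPH replicate 4 (ratio 0.844), and Nos2 was high on AAM replicate 2 (0.872). The Asl probe set with the Hnrnpab accession was high on WPH replicate 1 (0.917). Arg2 was low on WPH replicate 4 (0.836), and Sms was low on AAM replicate 1 (0.849).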

How the results depend on the processing

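The standardized difference of Ddah1 stayed below 0 in all 15 alternatives in which it was fitted. It was -5.37 on the deposited values, -0.46 with quantile normalization and on ranks within each array, -0.86 with median centring and -3.95 in the fit blocked on replicate number, and ran from -6.19 to -4.87 when each array was left out. Ranks and quantiles cannot follow its range of 10.2 millionths, over which its rank moved by 1 place. Array medians differed by up to 66.7 millionths, and which scaling is nearer to the true levels was not tested. Same-numbered rats did not deviate together in every pair (correlations 0.157, 0.134, 0.064 and -0.071), so the number was not taken as a pairing, and the block changed no count of calls. Limma called 0 probe sets in all fits but 5 with quantile normalization and 5 on ranks, none of them a member; the cause was not tested. Member probe sets higher after WPH numbered 3, and 5 with quantile normalization, 1 with median centring, 5 on ranks and 2 to 5 when each array was left out (5 without AAM replicate 1, 2 without AAM replicate 3). Groups without overlap numbered 693 probe sets, and 48 with quantile normalization, 65 with median centring, 48 on ranks, 291 with dim probe sets left out, where fewer were tested, and 1299 to 1651 when an array was left out, where fewer arrays have to be apart. The members Nos1, Nos2, Ass1, both Asl probe sets, Arg1 and Arg2 changed sign under at least 1 alternative, whereas Ddah1, Ddah2 and Nos3 did not. Nos1 did so only with quantile normalization and on ranks, and stayed at -2.21 to -1.24 when each array was left out. Signs under those 2 scalings therefore do not set Ddah1 apart from Nos1.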

Other observations

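With the group means removed, the genes most like Ddah1 over the 8 arrays were Atg4b, a protease of autophagy (r = 0.992), Phkg2, a catalytic subunit of phosphorylase kinase (0.990), Lilrb2 (0.960), Ccdc112 (0.949) and Rnpc3 (0.947), the highest 5 of 20825 probe sets compared. None of these 5 shared the separation by meal of Ddah1, their standardized differences lying between -0.30 and 0.93. With the group means kept, their r with Ddah1 ran from -0.189 (Lilrb2) to 0.463 (Atg4b). The highest of so many coefficients over 8 arrays are large even among unrelated genes, here and for Nos1 and Nos3 below. Shared regulation was not tested. Nos1 was most like Clint1 (0.992), St6gal1 (0.990), Epor, the erythropoietin receptor (0.971), Dguok (0.969) and Pamr1 (0.956). With the group means kept, their r with Nos1 ran from 0.519 (St6gal1) to 0.978 (Clint1). Nos3 was most like Mybpc1, the myosin-binding protein C of slow fibres (0.994), Man2c1 (0.972), Homez (0.966), Gng5 (0.966) and LOC102546992 (0.964). With the group means kept, their r with Nos3 ran from 0.533 (Man2c1) to 0.878 (LOC102546992), with 0.572 for Mybpc1. No endothelial marker of the list was among the 5 genes most like Nos3. With 9 such markers measured and 5 genes named out of 20825 probe sets, this absence tells nothing about Nos3 and endothelium.

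Arg2 was 1 of 23 probe sets whose deposited values ranged over more than 0.1. Over the 8 arrays its correlation with the 22 others had a median of -0.52 and ran from -0.77, for Coq10b, to 0.90, for Ampd3, the AMP deaminase of non-muscle type. With Fam111a, the probe set with a larger SD (0.214), it had 0.06. Interferon-induced genes among the 22, such as Isg15 (-0.62), Ifit2 (-0.60 and -0.61 for its 2 probe sets) and Mx1 (-0.52), had negative values. How far these genes vary with one another was not tested, so the 22 values are not separate pieces of evidence. These genes were singled out after their values were seen.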
